A study of Oncorhynchus mykiss with 6 samples.

Results

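The collagen chain loci of rainbow trout (Oncorhynchus mykiss) skin were taken as every locus whose product name in the deposited table holds the words collagen alpha with a chain number. This rule gave 209 of 41818 loci, which name 39 chains of 25 collagen types. By the type numeral, 44 loci were fibrillar, 26 were cartilage types, 37 were basement membrane types and 102 were of other types. No product name gave type III. NCBI gene numbers name 178 loci and MSTRG identifiers the other 31. The symbol in the table names the same type as the product at 124 loci, another type at 14, and no collagen at 71. Types below are those of the product name, and the symbol is given where it exists.

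Collagens are extracellular matrix proteins whose chains wind around each other in a helix with glycine at regular intervals, and which chains combine decides the kind of fibre or sheet they form. Fibrillar collagens form cross-striated fibres, such as those that give the dermis and bone their strength. The class called fibrillar here holds types I, III, V and XI. Type II also forms fibrils but is counted here with the cartilage types. Types II and IX build the fibrils of cartilage, and type X forms a lattice around hypertrophic chondrocytes in mammals and is also made by bone-forming cells in fish. Basement membrane collagens carry the sheet under the epidermis: type IV is its network, type VII anchors it to the dermis, and type XVII spans the membrane of basal keratinocytes and fastens them to it.

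The libraries were made from total RNA of dorsal skin at an age of 45 days, 3 from fish with the wild-type colour and 3 from a yellow mutant. The study compares the phenotypes to relate RNA levels to skin colour. No gene, allele or strain behind the yellow phenotype is named in the labels. Nor is it stated whether each library came from another fish. The p-values therefore capture the spread of these libraries alone, which may be technical.

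Total counts ranged from 15059101 to 19031878 per library. Levels are CPM, the counts relative to a library size scaled with TMM factors, which correct for differences in library composition. These factors were 0.92 to 0.95 in the wild-type libraries and 1.06 to 1.08 in the yellow mutant libraries. Whether the phenotypes overlap in CPM at a locus therefore also depends on this scaling. FPKM, which also divides by gene length, is used where loci are ranked against each other. A change is a log2 fold change with its standard error (SE), above 0 where the yellow mutant was higher, and each adjusted p is that of edgeR's quasi-likelihood test with Benjamini-Hochberg adjustment over 30691 tested genes. The median change over all tested genes was -0.0029 with TMM and 0.1958 with library totals alone, so small changes depend on the scaling. Whether RNA of a collagen falls because fewer cells make it or because each cell makes less cannot be told apart in these bulk libraries. Trout carry many duplicated genes, and the sources used here do not give how reads shared between near-identical loci were assigned, so values of sister copies are uncertain to that extent.

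Yellow mutant replicate 1 stood apart in part of the collagen set. Among 143 collagen loci with a mean of at least 1 CPM, 18 (12.6%) were below both other yellow mutant libraries by over 1.5 times in that library, against 2.09% of all 28214 tested genes at that level. In each of the other 5 libraries between 0 and 5 collagen loci stood below both partners in this way. At most named loci where this library lay far below its partners, values without it stand beside those with it.

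Collagen loci together took 3.81% ± 0.241 (SD, n = 3) of all counts in wild-type skin and 3.94% ± 0.121 (SD, n = 3) in yellow mutant skin. The wild-type libraries held 4.09%, 3.69% and 3.66%, and the yellow mutant libraries 3.81%, 4.01% and 4.01%, so the phenotypes overlapped. Type I alone accounted for 2.27% ± 0.195 in wild-type skin and 2.12% ± 0.0829 in yellow mutant skin, and these also overlapped. Type X came next. Its share was 0.346%, 0.444% and 0.377% across the wild-type replicates and 0.372%, 0.765% and 0.749% across the yellow mutant ones, with yellow mutant replicate 1 inside the wild-type range. The type VI share was 0.283% ± 0.0163 in wild-type skin and 0.289% ± 0.00245 in yellow mutant skin. Type IX was a small share, at 0.00207% ± 0.000495 and 0.0181% ± 0.00228, with no overlap between phenotypes. It was not alone in this. Type II, at 0.0143% ± 0.000423 and 0.0177% ± 0.000652, and types IV, XIII, XXI, XXII, XXVI and XXVII were also higher in every yellow mutant library. The shares of types VIII, XX and XXV were lower in every yellow mutant library.

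**Figure D1:**
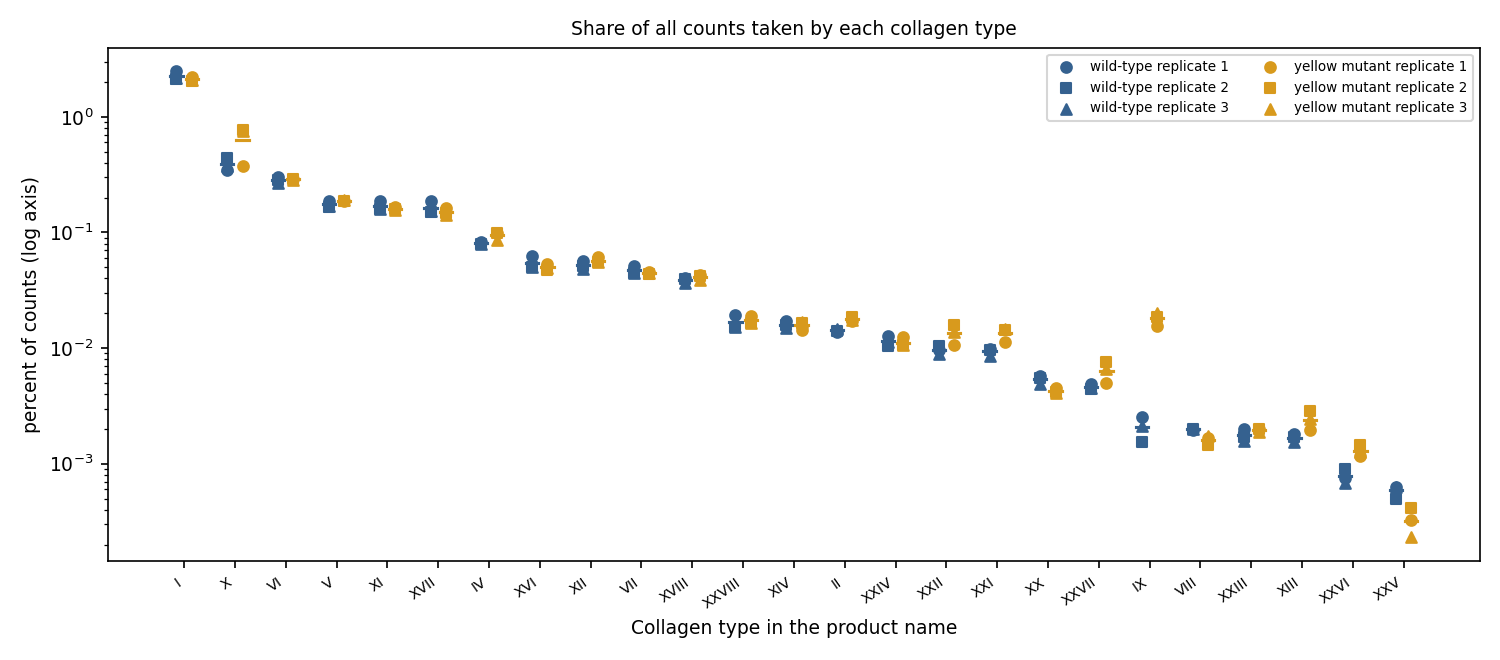
Percent of all counts (log axis) that fell on the loci of each collagen type, per library, with types ordered by their wild-type mean. Points are libraries, with the replicate number as the shape, and short lines are means of 3. Type I took about 2.27% in wild-type skin and 2.12% in yellow mutant skin. The yellow mutant libraries lie clear of the wild type at type IX, and by smaller margins at several other types, such as II and IV. Type X is high in yellow mutant replicates 2 and 3 only.

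Of the 209 collagen loci, 164 had enough counts to be tested and 45 did not. Of those 45, 6 had no count in any library and 39 had at most 60 counts over the 6 libraries. Among the 164, 23 were higher and 47 were lower in the yellow mutant, while 94 did not pass the test at an adjusted p of 0.05. Over all tested genes 21.7% were higher and 23.1% lower (44.8% in either direction). The collagen shares were 14.0% higher and 28.7% lower (42.7% in either direction), so the set as a whole changed about as often as any gene. The median collagen change was -0.11, and with library totals alone it was 0.09, with 41 loci higher and 28 lower, where all genes gave 35.2% and 14.8% (50.0% in either direction). At 76 of the 164 loci the phenotypes did not overlap in TMM-scaled level, against 54.3% of all tested genes. At 16 loci the change passed the test and reached a log2 of 1 or more in size, which 11.5% of all tested genes did. With each single library left out in turn, 48 of the 70 called loci passed the test every time and 22 lost the call at least once. Without yellow mutant replicate 1, 33 collagen loci were higher and 47 lower of 169 tested, where all genes gave 19.2% and 20.4% (39.6% in either direction).

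**Figure D2:**
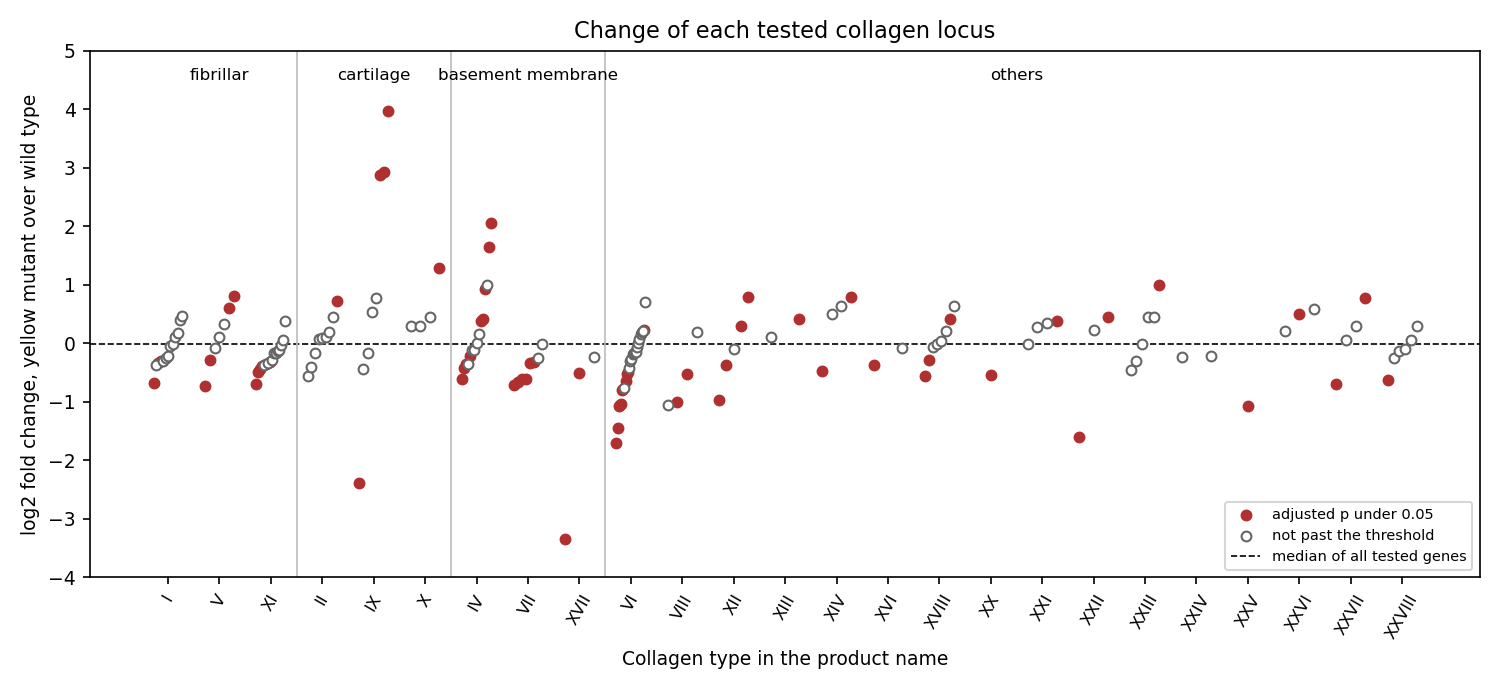
Log2 fold change of each of the 164 tested collagen loci, arranged by collagen type within the 4 classes. Filled points passed the test at an adjusted p under 0.05, open points did not, and the dashed line is the median of all tested genes (-0.0029). Type VII and XI loci lie mostly below the line, and 3 type IX loci lie between 2.87 and 3.98.

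Among the fibrillar collagens the most abundant type I loci were slightly lower in the yellow mutant with TMM scaling. Of 36 tested fibrillar loci, 2 were higher (5.56%) and 11 lower (30.6%), with a median of -0.20. Over all tested genes 21.7% were higher and 23.1% lower. With library totals alone 5 were higher and 4 lower, where all genes gave 35.2% and 14.8%. The fibrillar median was then 0.0023, while the median of all genes moved by as much. Relative to that median the fibrillar loci stood at -0.1928 with TMM and -0.1935 with library totals. Without wild-type replicate 1 the lower calls were 7. Leaving out yellow mutant replicate 1 gave 5 higher and 12 lower of 37 tested, where all genes gave 19.2% and 20.4%.

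The most abundant collagen per length was col1a2 (ncbi_100135811), the alpha-2 chain of type I, with a mean of 1968 FPKM over the 6 libraries. Its CPM was 9864, 8606 and 8989 across the wild-type replicates and 7767, 7315 and 7317 in the yellow mutant. With TMM scaling every yellow mutant library was below every wild-type library, while the type I share of all counts overlapped. The log2 fold change was -0.29 (SE 0.09, adjusted p = 0.0212), and the adjusted p was 0.0548 without wild-type replicate 1, 0.0568 without wild-type replicate 3 and 0.379 with library totals alone.

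COL1A1 (ncbi_110486153) encodes the alpha-1 chain that pairs with it and had 1563 FPKM. It stood at 9470, 8389 and 8701 CPM in wild-type skin and at 7431, 6785 and 6885 CPM in yellow mutant skin, again without overlap. It fell by 0.33 on the log2 scale (SE 0.09, adjusted p = 0.0112), and with library totals alone its adjusted p was 0.215. The second COL1A1 locus (ncbi_110503033, 1083 FPKM) had 6829, 5831 and 6037 CPM against 5611, 4932 and 5145 CPM. Its groups did not overlap either, and its change of -0.25 (SE 0.10) missed the threshold with an adjusted p of 0.0514. Without yellow mutant replicate 1 this adjusted p was 0.0283. The third type I locus that fell carries the symbol COL5A3 (ncbi_110524439) and went from 14.9 ± 1.13 to 9.25 ± 0.173 CPM, a change of -0.69. No type I locus rose with all 6 libraries, and without yellow mutant replicate 1 there were 2 that did, namely COL11A1 (ncbi_110525117) at 0.57 and Col5a2 (ncbi_110523500) at 0.63, both sparse.

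Type V collagen is mixed into type I fibrils and sets their diameter. Its 7 tested loci went both ways, with 2 higher and 2 lower (28.6% each), beside 21.7% and 23.1% of all tested genes. The abundant Col5a2 locus ncbi_110501377 had 766, 665 and 702 CPM in wild-type skin and 617, 560 and 581 CPM in yellow mutant skin. It was lower in each yellow mutant library and fell by 0.28 (SE 0.09, adjusted p = 0.0195), and this call was lost without wild-type replicate 1, wild-type replicate 3 or yellow mutant replicate 2, and with library totals alone (adjusted p = 0.457). A further locus with the symbol Col5a2 (ncbi_110520599) had 1005 ± 61.4 and 955 ± 46.0 CPM and did not pass, at -0.07. Another Col5a2 locus (ncbi_110497058) had 45.6, 58.8 and 47.6 CPM in wild-type skin and 53.4, 108 and 104 CPM in yellow mutant skin. Yellow mutant replicate 1 lay within the wild-type range, while the other 2 libraries were far above it. Its change was 0.81 (SE 0.20, adjusted p = 0.00498) with all libraries and 1.08 without yellow mutant replicate 1. An alpha-1 locus of type V (Col5a1, ncbi_110485366) fell by 0.73 (SE 0.21), from 6.86, 4.72 and 4.36 CPM to 3.47, 3.43 and 2.76 CPM, without overlap. Its adjusted p was 0.0113, and 0.0718 without wild-type replicate 1.

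Type XI chains, which seed fibrils in cartilage and combine with type V chains elsewhere, gave 6 lower and 0 higher loci of 16 tested, with a median of -0.31. The lower share was 37.5%, and over all tested genes 23.1% were lower and 21.7% higher. With library totals alone 2 of these 16 were lower, where all genes gave 14.8%. The most abundant that fell has the symbol COL5A1 (ncbi_110522815) and went from 562 ± 44.5 to 449 ± 16.6 CPM, a change of -0.32 (SE 0.09, adjusted p = 0.00813, and 0.244 with library totals alone). The lowest type XI value was that of an alpha-1 locus without a symbol (ncbi_110487193). It had 14.7, 10.8 and 11.4 CPM in wild-type skin and 8.15, 7.34 and 7.27 CPM in yellow mutant skin. Its groups were apart, and the change was -0.70 (SE 0.13, adjusted p = 0.000862).

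Of 21 tested cartilage-type loci, 5 were higher (23.8%) and 1 lower (4.76%), with a median of 0.30. The higher share is near the 21.7% of all tested genes, and the lower share is below their 23.1%. With library totals alone 10 were higher and 1 lower, where all genes gave 35.2% and 14.8%. Without yellow mutant replicate 1 there were 9 higher and 1 lower of 22 tested, where all genes gave 19.2% and 20.4%. The type X loci among them stood low in that library, so leaving it out raises their changes by construction. Most of the RNA of this class was type X, and the largest changes were in type IX.

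Type IX is a collagen with an interrupted helix that coats cartilage fibrils and is built from an alpha-1, an alpha-2 and an alpha-3 chain. One locus of each chain rose several-fold in the yellow mutant. For the alpha-1 chain, COL9A1 (ncbi_110496835) had 10.4, 4.01 and 4.36 CPM across wild-type replicates 1 to 3 and 89.5, 99.6 and 111 CPM in yellow mutant replicates 1 to 3. The lowest yellow mutant library was far above the highest wild-type library, which was replicate 1. The fold was 15.7 (log2 3.98, SE 0.23, adjusted p = 4.44e-08), and leaving out wild-type replicate 1 gave a log2 of 4.57.

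The alpha-3(IX) locus ncbi_110488196, whose symbol is also COL9A1, had 7.57, 6.73 and 6.17 CPM in wild-type skin and 43.0, 53.9 and 59.7 CPM in yellow mutant skin. Each wild-type library was low and each yellow mutant library high, a fold of 7.64 (log2 2.93, SE 0.13, adjusted p = 5.04e-09). The alpha-2(IX) locus ncbi_110489382 went from 0.895, 0.930 and 1.70 CPM to 8.73, 8.95 and 8.45 CPM. Here too the groups were far apart, with a fold of 7.33 (log2 2.87, SE 0.21, adjusted p = 3.10e-07).

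The other type IX loci did not follow. A further alpha-2(IX) locus (ncbi_110513982) had 1.79, 1.502 and 1.15 CPM in wild-type skin and 0.0578, 0.294 and 0.461 CPM in yellow mutant skin, where it rested on 16 counts. Its groups did not overlap and it fell by 2.38 (SE 0.47, adjusted p = 0.00104). The remaining 4 tested type IX loci all averaged below 3 CPM in both phenotypes and did not pass, with changes from -0.43 to 0.78. Another 4 had too few counts to test.

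By FPKM the 4 type X loci came directly after the 3 most abundant type I loci. The one with the highest FPKM, COL10A1 (ncbi_110522131, 708 FPKM), had 1425, 1907 and 1590 CPM in wild-type skin and 1369, 2740 and 2586 CPM in yellow mutant skin. Yellow mutant replicate 1 was the lowest of all 6 libraries and the other 2 were the highest. The change was 0.44 (SE 0.20, adjusted p = 0.088) with all libraries and 0.71 (adjusted p = 0.000349) without yellow mutant replicate 1. It passed with library totals alone (0.65, adjusted p = 0.0145).

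COL10A1 (ncbi_110506256) had 1014, 1288 and 1126 CPM against 866, 1659 and 1689 CPM, and COL10A1 (ncbi_110505254) had 851, 1113 and 946 CPM against 705, 1411 and 1464 CPM. Both showed the same order of libraries, and both changes were 0.30 and did not pass (adjusted p = 0.232 and 0.26). Without yellow mutant replicate 1 they were 0.56 and 0.57 with adjusted p of 0.000994 and 0.00114. The first of them passed with library totals alone (adjusted p = 0.0429).

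The fourth type X locus, COL10A1 (ncbi_110529515), was the one that passed with all 6 libraries. It had 359, 477 and 440 CPM in wild-type skin and 578, 1318 and 1222 CPM in yellow mutant skin. All yellow mutant libraries were above the wild type, with replicate 1 closest to it. The fold was 2.45 (log2 1.29, SE 0.23, adjusted p = 0.000461), and the log2 fold change was 1.59 without yellow mutant replicate 1.

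**Figure D3:**
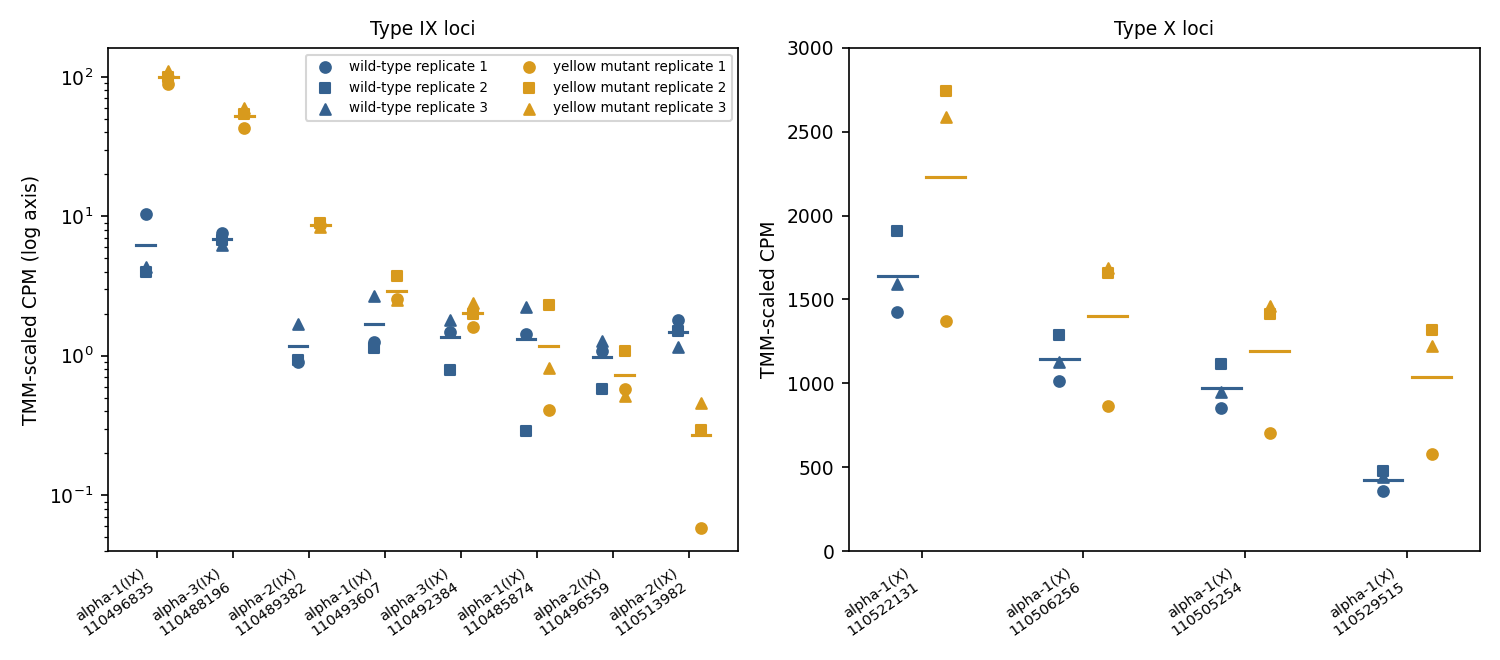
TMM-scaled CPM per library of the 8 tested type IX loci (left, log axis, ordered by log2 fold change) and the 4 type X loci (right, linear axis). Points are libraries, with the replicate number as the shape, and short lines are means of 3. At 3 type IX loci every yellow mutant library is far above the wild type, while at all 4 type X loci yellow mutant replicate 1 lies well below its partners.

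Type II, the main collagen of cartilage fibrils, was not abundant. Its most abundant locus, col2a1 (ncbi_110529043), had 72.9, 75.7 and 79.2 CPM in wild-type skin and 88.4, 77.3 and 76.6 CPM in yellow mutant skin. The groups overlapped, and the change of 0.09 did not pass, though it did with library totals alone (0.29, adjusted p = 0.00719). Of 9 tested type II loci, 1 passed. This COL2A1 locus (ncbi_110528755) had 10.1, 16.0 and 12.2 CPM against 14.6, 24.1 and 24.2 CPM, with yellow mutant replicate 1 inside the wild-type range. It rose by 0.73 (SE 0.19, adjusted p = 0.00669), and by 0.93 without yellow mutant replicate 1.

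Markers of cells that could hold these RNAs were read beside them. Chondrocyte markers gave 7 higher (41.2%) and 3 lower (17.6%) of 17 tested loci, beside 21.7% and 23.1% of all tested genes, with a median of 0.29, and their summed level was 238 to 247 CPM in wild-type skin and 345 to 374 CPM in yellow mutant skin. Matn4 (ncbi_110527673), a cartilage matrix adaptor gene, rose by 1.67, and CHAD (ncbi_110491522), which encodes chondroadherin, rose by 1.40. Of the HAPLN1 loci, which encode a link protein of cartilage proteoglycan, the list's most abundant locus (ncbi_110535717) rose by 0.43 from 70.7 ± 3.87 to 95.4 ± 9.10 CPM. Locus ncbi_110509631 rose by 1.08 and ncbi_110525310 by 0.30 (adjusted p = 0.0958 without yellow mutant replicate 1), and ncbi_110522823 had no count. Of the SOX9 loci, which encode the chondrocyte transcription factor, ncbi_100135781 fell by 1.16 and sox9-b (ncbi_100135900) rose by 0.88. The other lower loci of this list are not given here, so the named loci lean towards the higher ones. Aggrecan, the bulk proteoglycan of cartilage, was near 0. Its one tested ACAN locus (ncbi_110491947) had at most 2.79 CPM in a library and did not pass. The ucma locus (ncbi_110521198) had no count in the wild type and at most 0.173 CPM in a yellow mutant library. The fin fold marker and1 (ncbi_110535369), which encodes an actinotrichia protein of fish fin folds, rose by 2.73 from 5.18 ± 0.368 to 34.3 ± 0.797 CPM. The part of any of these cells in the type IX result was not tested.

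Osteoblast and scale-forming cell markers gave 1 higher (7.69%) and 2 lower (15.4%) of 13 tested loci, beside 21.7% and 23.1% of all tested genes. With library totals alone 5 were higher (38.5%) and 2 lower (15.4%), where all genes gave 35.2% and 14.8%. Without yellow mutant replicate 1 there were 6 higher and 2 lower, where all genes gave 19.2% and 20.4%. The summed level of these markers was 376 to 422 CPM in wild-type skin and 296, 416 and 446 CPM in yellow mutant skin. Yellow mutant replicate 1 was again the lowest. Sp7 (ncbi_110494803), the transcription factor gene of osteoblasts, had 47.5, 53.9 and 45.4 CPM in wild-type skin and 40.6, 64.5 and 64.4 CPM in yellow mutant skin. Panx3 (ncbi_110533516), an osteoblast channel gene, had 77.8, 86.4 and 75.7 CPM against 58.3, 102 and 102 CPM. Over the 13 tested loci of this list, yellow mutant replicate 1 was the lowest of its group at 10 and below every wild-type library at 8. How often this held over all tested genes was not counted. At the 32 tested keratinocyte marker loci these counts were 9 and 24. Sp7 and Panx3 were 2 of the 8 loci of the osteoblast and scale-forming list, and neither passed with all 6 libraries (adjusted p = 0.253 and 0.536). Both passed without that library, with changes of 0.41 and 0.36. Both loci were named after that library was seen to be low in them, so leaving it out raises these changes by construction. PHEX (ncbi_110489511), an osteoblast peptidase gene, rose by 0.85 with all libraries, and in it yellow mutant replicate 1 was above the wild type at 12.9 CPM against at most 10.4. The second Sp7 locus (ncbi_110527688) had 4.59, 6.37 and 5.39 CPM against 4.91, 8.47 and 7.78 CPM, with that library inside the wild-type range. Of the ALPL loci, which encode alkaline phosphatase, ncbi_110494449 and ncbi_110494447 fell by 1.91 and 1.66, and ncbi_110527998 did not pass at -0.07, with yellow mutant replicate 1 the highest of its group at 27.4 CPM. Whether the type X values follow the amount of scale-forming tissue in each library was not tested.

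**Figure D4:**
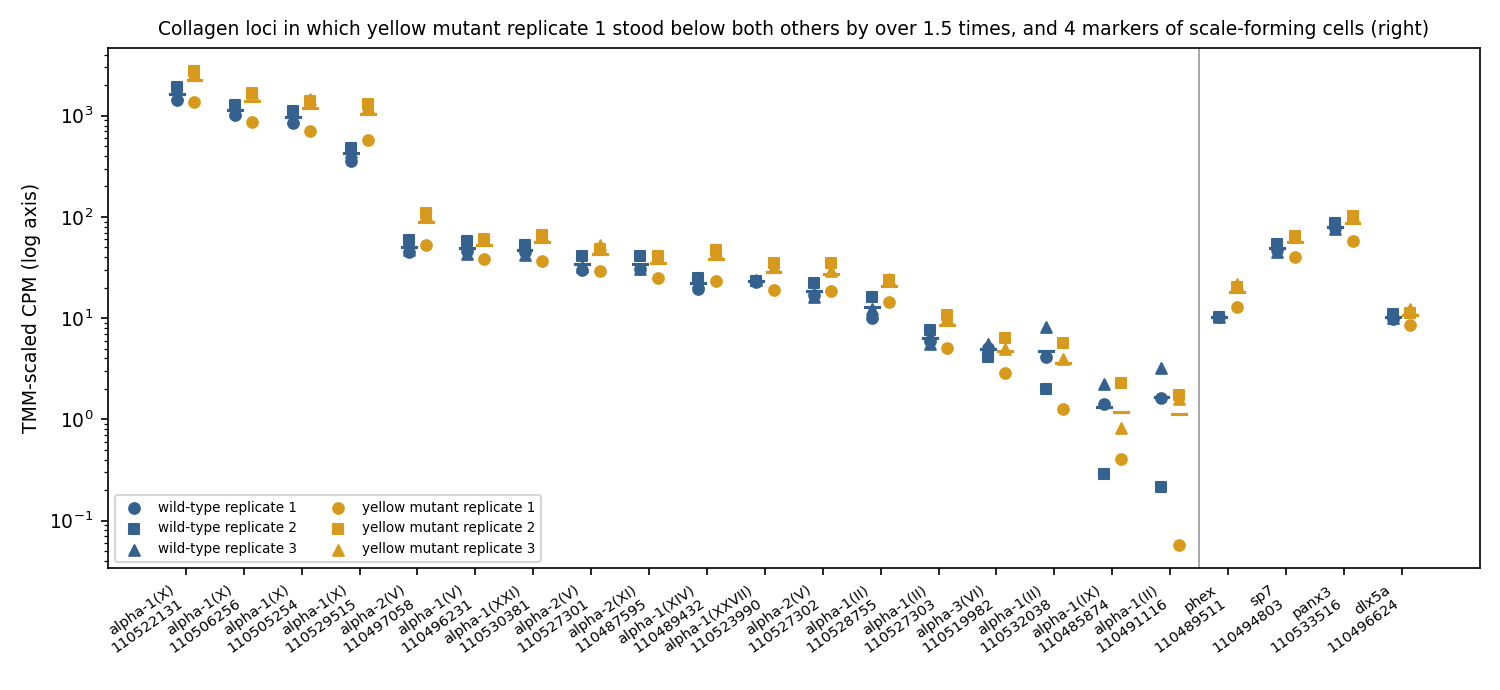
TMM-scaled CPM per library (log axis) of the 18 collagen loci at which yellow mutant replicate 1 stood below both other yellow mutant libraries by over 1.5 times, ordered by level, with 4 markers of scale-forming cells, chosen after their values were seen, at the right. Points are libraries and short lines are means of 3. The amber circle of replicate 1 lies below its partners at each collagen locus shown and at the 4 markers. Over all 13 tested loci of that marker list it was the lowest of its group at 10, and the share over all tested genes was not counted.

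The 18 loci low in yellow mutant replicate 1 were the 4 type X loci, 4 type II loci, 4 type V loci and 1 each of types VI, IX, XI, XIV, XXI and XXVII. Type V loci ncbi_110527301 and ncbi_110527302 and type II locus ncbi_110527303 are consecutively numbered. Whether these are pieces of 1 gene is not stated. The 18 loci were chosen for a low value in that library, so leaving it out raises the change at each of them by construction. The most abundant type I loci were not among them: at col1a2 and at both abundant COL1A1 loci yellow mutant replicate 1 was the highest of its group.

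Of 26 tested basement membrane loci, 5 were higher and 12 lower, with a median of -0.24, and 9 did not pass. The 65.4% called stand beside 44.8% of all tested genes, the 19.2% higher beside 21.7% and the 46.2% lower beside 23.1%. With library totals alone 6 were higher and 6 lower, where all genes gave 35.2% and 14.8%, and the median was -0.04. Types VII and XVII fell or did not pass, while type IV went both ways.

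Type VII forms the anchoring fibrils under the epidermis. Of its 8 tested loci 6 were lower (75.0%) and 0 higher, beside 23.1% and 21.7% of all tested genes. With library totals alone 4 were lower, where all genes gave 14.8%. The Col7a1 locus ncbi_110500997 had 4.17, 5.08 and 4.18 CPM in wild-type skin and 2.60, 2.35 and 3.23 CPM in yellow mutant skin. Its groups were apart, and it fell by 0.71 (SE 0.20, adjusted p = 0.01). Locus ncbi_110500998, with the symbol Col12a1, had 46.5, 38.7 and 42.5 CPM against 30.4, 26.4 and 24.6 CPM. It too was lower in every yellow mutant library, at -0.65 (SE 0.10, adjusted p = 0.000116). The loci ncbi_110500999 and ncbi_110501000 fell by 0.61 each, and whether these 4 consecutively numbered loci are pieces of 1 gene is not stated.

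The 2 most abundant type VII loci differed from each other in outcome. Col7a1 (ncbi_110528989) went from 213 ± 16.5 to 169 ± 13.7 CPM, a change of -0.34 (SE 0.09, adjusted p = 0.00703, and 0.204 with library totals alone). Col7a1 (ncbi_110493231) had 166 ± 11.4 and 165 ± 7.001 CPM and did not pass, at -0.01 (SE 0.08). The difference between these loci was not tested.

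Type XVII, the hemidesmosome collagen of basal keratinocytes, was carried by 2 abundant loci. COL17A1 (ncbi_110529109) had 1391, 1161 and 1181 CPM in wild-type skin and 1125, 1049 and 1009 CPM in yellow mutant skin. The groups were just apart, and its change of -0.23 (SE 0.10) missed the threshold with an adjusted p of 0.0675. The second, COL17A1 (ncbi_110493532), had 560, 442 and 476 CPM against 411, 317 and 315 CPM. All yellow mutant libraries were lower, and it fell by 0.50 (SE 0.12, adjusted p = 0.00351), with an adjusted p of 0.0396 with library totals alone. A sparse type XVII locus (ncbi_110487296) had 1.73, 1.07 and 2.12 CPM in wild-type skin and 0.231, 0.245 and 0 CPM in yellow mutant skin. It had 9 counts in the yellow mutant and fell by 3.34 (SE 0.56, adjusted p = 0.000307), the largest decrease of any tested collagen locus, with a range of -3.82 to -2.75 as single libraries were left out.

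Epidermal keratinocyte markers moved beside these loci. They gave 2 higher (6.25%) and 20 lower (62.5%) of 32 tested loci with a median of -0.70, beside 21.7% and 23.1% of all tested genes. With library totals alone 6 were higher and 18 lower, where all genes gave 35.2% and 14.8%. Their summed level was 75010 to 79860 CPM in wild-type skin and 29060 to 31750 CPM in yellow mutant skin. TP63 (ncbi_110524472), the basal keratinocyte transcription factor gene, fell by 1.10 (SE 0.09), from 82.7 ± 4.64 to 38.7 ± 3.40 CPM. The part of keratinocyte content in the type VII and XVII values was not tested.

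Type IV chains form separate networks of alpha-1 with alpha-2, of alpha-3 with alpha-4 and alpha-5, and of alpha-5 with alpha-6. Of 15 tested type IV loci, 5 were higher (33.3%) and 4 lower (26.7%), beside 21.7% and 23.1% of all tested genes. With library totals alone 6 were higher and 0 lower, where all genes gave 35.2% and 14.8%. The genes of paired chains lie side by side in the genome, and the RefSeq gene table of assembly USDA_OmykA_1.1 places 2 such alpha-1 and alpha-2 pairs in trout. One pair rose: alpha-1(IV) ncbi_110520476 went from 94.2, 98.6 and 91.1 CPM to 132, 131 and 117 CPM (0.42, SE 0.08, adjusted p = 0.00078). Its neighbour Col4a2 (ncbi_110520475) went from 118, 117 and 117 CPM to 159, 163 and 136 CPM (0.38, SE 0.08, adjusted p = 0.00218). At both loci every yellow mutant library was above the wild type. The more abundant pair did not pass: COL4A1 (ncbi_110501999) had 320, 314 and 309 CPM against 314, 310 and 253 CPM (-0.11, SE 0.09), and Col4a2 (ncbi_110501998) stood at -0.0013 (SE 0.09).

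The alpha-5 and alpha-6 chains fell or did not pass. COL4A5 (ncbi_110500339) went from 62.2, 63.8 and 67.5 CPM to 50.5, 52.4 and 47.9 CPM, without overlap (-0.36, SE 0.07, adjusted p = 0.00162, and 0.0855 with library totals alone). Its neighbour COL4A6 (ncbi_110500827) fell by 0.21 (SE 0.08, adjusted p = 0.0359), and this call was lost when any library but wild-type replicate 3 was left out. In the other pair, COL4A5 (ncbi_110531422) fell by 0.42 and its alpha-6 neighbour (ncbi_110532911) did not pass at -0.36. The COL4A5 call of that pair held only without wild-type replicate 2 among the 6 libraries left out in turn. Of the largest type IV increases, an alpha-3(IV) locus (ncbi_110530010, symbol COL4A1) went from 0.537, 0.501 and 0.363 CPM to 2.08, 2.15 and 1.64 CPM. It was sparse but apart in all libraries, at 2.05 (SE 0.33, adjusted p = 0.000227). The alpha-2(IV) locus MSTRG.33383 had 0.716, 0.501 and 0.484 CPM in wild-type skin and 1.73, 1.32 and 2.35 CPM in yellow mutant skin, again apart (1.65, SE 0.35, adjusted p = 0.00198).

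The other types gave 11 higher (13.6%) and 23 lower (28.4%) of 81 tested loci, with a median of -0.08. The 42.0% called in either direction are near the 44.8% of all tested genes, of which 21.7% were higher and 23.1% lower. With library totals alone 20 were higher and 17 lower, where all genes gave 35.2% and 14.8%. Type VI, whose beaded filaments surround cells in most tissues, was the largest of them. Of its 26 tested loci 1 was higher (3.85%) and 10 lower (38.5%). The abundant core chains did not pass. COL6A3 (ncbi_110501275), the alpha-3 chain, had 1384, 1355 and 1276 CPM in wild-type skin and 1228, 1230 and 1184 CPM in yellow mutant skin, all lower but close (-0.14, SE 0.08, adjusted p = 0.193). The COL6A2 loci ncbi_110531056 and ncbi_110508269 had 342 ± 20.9 against 306 ± 20.1 CPM and 358 ± 16.5 against 324 ± 7.30 CPM, with changes of -0.16 and -0.14. With library totals alone these 3 changes were 0.06, 0.04 and 0.06, also not past the threshold.

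The decreases of type VI sat at less abundant loci, 4 of alpha-1, 2 of alpha-2 and 4 of alpha-6. The alpha-6 chain can take the place of alpha-3 in the molecule. Col6a6 (ncbi_110535417) had 70.2, 80.3 and 66.9 CPM in wild-type skin and 23.8, 22.8 and 20.2 CPM in yellow mutant skin. The groups were far apart, and it fell by 1.70 (SE 0.09, adjusted p = 2.59e-08). Col6a1 (ncbi_110535453) went from 14.5, 18.0 and 15.5 CPM to 5.38, 5.82 and 6.30 CPM. This was a drop in each yellow mutant library, by 1.45 (SE 0.12, adjusted p = 8.46e-07). Col6a1 (ncbi_110535435) had 129, 154 and 132 CPM against 62.7, 63.3 and 71.2 CPM and fell by 1.07 (SE 0.09, adjusted p = 8.08e-07), also without overlap. It lies next to Col6a6 (ncbi_110535427) in the reference, which was called higher at 0.22 (SE 0.08, adjusted p = 0.0454). That call was lost on leaving out any library but yellow mutant replicate 3. The 3 decreases passed with library totals alone too.

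Types XII and XIV are collagens with interrupted helices that sit on the surface of type I fibrils. COL12A1 (ncbi_110522086) had 32.5, 37.9 and 29.3 CPM in wild-type skin and 58.7, 55.6 and 58.7 CPM in yellow mutant skin. Every yellow mutant library was above the wild type, and it rose by 0.80 (SE 0.09, adjusted p = 1.47e-05). The more abundant COL12A1 (ncbi_110498058) went the other way, from 249, 218 and 215 CPM to 193, 165 and 169 CPM (-0.37, SE 0.09, adjusted p = 0.00461, and 0.124 with library totals alone). The type XIV loci split likewise. COL14A1 (ncbi_110496254) went from 157, 143 and 138 CPM to 109, 101 and 107 CPM and fell by 0.47 (SE 0.08). COL14A1 (ncbi_110489432) had 19.6, 24.7 and 22.5 CPM against 23.4, 46.8 and 44.9 CPM and rose by 0.79 (SE 0.20), or by 1.05 without yellow mutant replicate 1, with that library inside the wild-type range.

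The fibril-associated COL16A1 (ncbi_110496558) had 539, 437 and 441 CPM in wild-type skin and 405, 339 and 355 CPM in yellow mutant skin. It fell by 0.37 (SE 0.10, adjusted p = 0.0103), without overlap, and its adjusted p was 0.0505 without wild-type replicate 1 and 0.183 with library totals alone. Type XVIII, a basement membrane proteoglycan whose end fragment is endostatin, had 1 higher (12.5%) and 2 lower (25.0%) of 8 tested loci. These shares stand beside 21.7% and 23.1% of all tested genes. Col18a1 (ncbi_110519975) fell by 0.56 from 105 ± 8.20 to 71.3 ± 4.33 CPM. COL15A1 (ncbi_110530389), which carries the type XVIII product name, rose by 0.42 from 48.8 ± 3.08 to 65.3 ± 6.93 CPM.

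Types XIII, XXIII and XXV are collagens that span the cell membrane. COL25A1 (ncbi_110531933), the one type XXV locus, went from 6.68, 5.37 and 6.90 CPM to 3.06, 3.82 and 2.15 CPM. All yellow mutant libraries were lower, and it fell by 1.07 (SE 0.21, adjusted p = 0.000978). A type XXIII locus (ncbi_110504808) had 0.656, 0.787 and 0.969 CPM against 1.45, 1.52 and 1.89 CPM and was higher in each yellow mutant library. It rose by 1.01 (SE 0.31, adjusted p = 0.0174), and the adjusted p was 0.0685 without wild-type replicate 1 and 0.0733 without yellow mutant replicate 3. The 2 COL24A1 loci of type XXIV, a fibril-forming type placed here by the numeral, stood at -0.24 and -0.22 and did not pass.

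Of 33 chains with at least 2 tested loci, 9 had a locus called higher and another called lower. With 21.7% of all tested genes higher and 23.1% lower, opposite calls also fall together in groups of unrelated genes, and how often was not tested. These were alpha-2(IV), alpha-2(V), alpha-6(VI), alpha-2(IX), alpha-1(XII), alpha-1(XIV), alpha-1(XVIII), alpha-1(XXII) and alpha-1(XXVII). Some rest on a call that single libraries decide. The only higher alpha-6(VI) locus (ncbi_110535427) lost its call when single libraries were left out. So did the only lower loci of alpha-2(V) (ncbi_110501377) and of alpha-1(XXII) (ncbi_110499369). The widest spread within a chain was 5.26 log2 units between alpha-2(IX) loci. The 15 tested alpha-1(XI) loci gave 6 lower and 0 higher, and the 7 tested alpha-3(VI) loci gave no call. Loci of 1 chain may share reads, so they are not independent measurements.

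**Figure D5:**
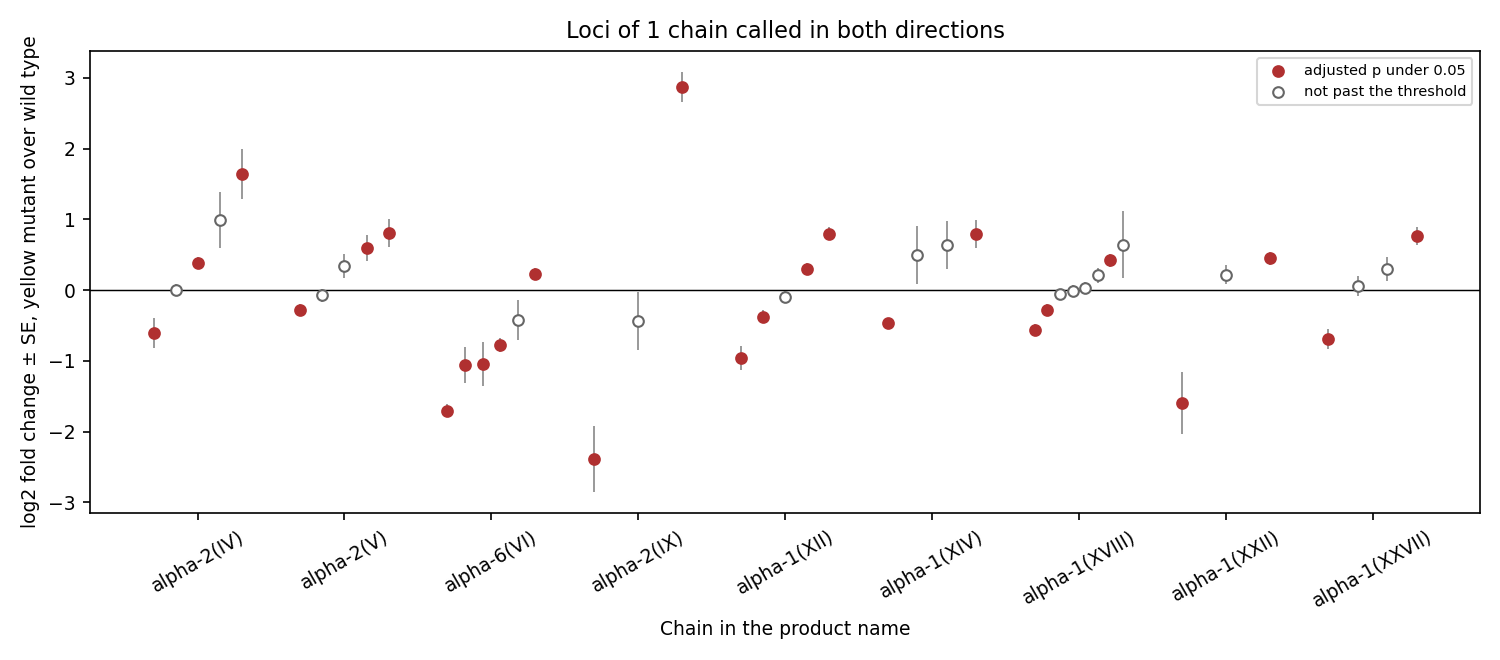
Log2 fold change with its SE (bars) of every tested locus of the 9 chains that had a locus called higher and another called lower. Filled points passed the test at an adjusted p under 0.05 and open points did not. The alpha-2(IX) loci span from -2.38 to 2.87 and the alpha-6(VI) loci from -1.70 to 0.22.

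The reference places 14 pairs of collagen loci directly beside each other, 11 of them with both loci tested, and in 3 pairs both loci passed in the same direction. These were the alpha-1 and alpha-2(IV) pair and the alpha-5 and alpha-6(IV) pair above, and COL9A1 (ncbi_110496835) with COL22A1 (ncbi_110496383), which rose by 0.45 (SE 0.09). Opposite calls fell in the type VI pair above (ncbi_110535427 and ncbi_110535435) and in the type XXII and XXI pair below. Over all tested genes 21.7% were higher and 23.1% lower, and how often neighbouring genes at large share a call was not tested. The other type IX loci that rose had neighbours that did not pass, namely COL22A1 (ncbi_110488195) at 0.22 beside the alpha-3(IX) locus, which passed with library totals alone or without yellow mutant replicate 1, and Col16a1 (ncbi_110487940) at -0.08 beside the alpha-2(IX) locus. A type XXII locus with the symbol COL9A1 (ncbi_110499369) fell by 1.60 (SE 0.44) next to COL21A1 (ncbi_110499370), which rose by 0.37 (SE 0.08). The former call was lost when replicate 2 of either phenotype was left out.

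Of 69 tested loci of chaperones, hydroxylases, procollagen proteinases and crosslinking enzymes, 23 were higher (33.3%) and 10 lower (14.5%), with a median of 0.10, beside 21.7% and 23.1% of all tested genes. Library totals alone gave 38 higher (55.1%) and 2 lower (2.90%), beside 35.2% and 14.8%. Among 4 SERPINH1 loci, which encode the collagen chaperone HSP47, 2 rose. The first, ncbi_100135844, went from 324, 309 and 320 CPM to 610, 613 and 683 CPM (1.001, SE 0.08, adjusted p = 7.94e-07). The other, ncbi_110504077, rose by 1.08 (SE 0.09) from 168 ± 4.61 to 355 ± 39.0 CPM. At both loci every yellow mutant library was well above the wild type. The others, ncbi_110533680 and ncbi_110537441, did not pass, at 0.18 and 0.21. Lox (ncbi_110525209), the enzyme that starts collagen crosslinks, had 2.51, 3.29 and 2.18 CPM in wild-type skin and 35.7, 65.1 and 67.0 CPM in yellow mutant skin. It rose by 4.41 (SE 0.25), or by 4.65 without yellow mutant replicate 1, with yellow mutant replicate 1 the lowest of its group. The more abundant Lox locus ncbi_110509899 rose by 0.38 (SE 0.09), from 153 ± 9.12 to 200 ± 21.1 CPM. LOX (ncbi_100189621) had 55.3 ± 5.47 and 64.3 ± 10.2 CPM and did not pass, at 0.215. The sparse Lox locus ncbi_110508305 rose by 2.545, and the remaining Lox loci had too few counts to test. Among the 10 lower loci of the list were Adamts2 (ncbi_110533139) at -0.83, loxl3b (ncbi_110504281) at -0.42 and LOXL1 (ncbi_110526332) at -0.32. With library totals alone Adamts2 still passed (adjusted p = 0.00045), and loxl3b and LOXL1 did not (adjusted p = 0.114 and 0.329). The most abundant locus of the list, PPIB (ncbi_110491579), a prolyl isomerase gene, had 640 ± 19.7 and 646 ± 28.5 CPM and did not pass.

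Partners in the fibril gave 10 higher (28.6%) and 8 lower (22.9%) of 35 tested loci and a median of -0.03. These shares are near the 21.7% and 23.1% of all tested genes. SPARC (ncbi_100136750), an abundant collagen-binding glycoprotein gene, went from 4081, 3584 and 3798 CPM to 3144, 2505 and 2987 CPM and fell by 0.41 (SE 0.10, adjusted p = 0.00623, and 0.0915 with library totals alone), without overlap. Among those that rose were thbs4b (ncbi_110525779), a thrombospondin gene of tendon, at 1.87, Fmod (ncbi_110494069), which encodes the fibril regulator fibromodulin, at 1.498, and the biglycan gene BGN (ncbi_110492263) at 1.22, or 1.52 without yellow mutant replicate 1. Collagen receptors, the integrins and discoidin receptors among them, gave 2 higher (9.09%) and 5 lower (22.7%) of 22 tested loci, beside the same 21.7% and 23.1%. The most abundant receptor locus, ITGB1 (ncbi_110530238), did not pass at 0.18.

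Other cell types of the sample were read by their markers, and their counts stand beside 21.7% higher and 23.1% lower of all tested genes. Dermal fibroblast markers gave 8 higher (30.8%) and 3 lower (11.5%) of 26 tested loci, and their summed level overlapped between phenotypes, at 6992 to 7981 CPM in wild-type skin and 6696 to 7704 CPM in yellow mutant skin. Tendon markers gave 3 higher (42.9%) and 0 lower of 7 tested loci, at 99.4 to 110 CPM and 148 to 163 CPM. Skeletal muscle markers gave 2 higher (8.33%) and 10 lower (41.7%) of 24, at 23920 to 27980 CPM and 15880 to 24140 CPM. Endothelium markers gave 2 higher (33.3%) and 0 lower of 6, at 81.4 to 87.3 CPM and 81.4 to 103 CPM, and nerve sheath markers 2 higher (40.0%) and 1 lower (20.0%) of 5, at 209 to 243 CPM and 226 to 305 CPM. The part of these cell types in the collagen values was not tested.

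In the authors' deposited table, 64 collagen loci had an FDR under 0.05, 21 of them above 0 on its log2 scale and 43 below. Of these 64 loci in the authors' deposited table, 62 were tested here and 58 had a call of the same sign.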

How the data were processed

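Dorsal skin RNA was sequenced in 6 libraries, grouped by the phenotype the labels name. The submitters' processing notes list Bowtie2 2.2.8 and TopHat2 2.1.1 without saying what each did. The sources used here do not give the counting tool, its strand use, the genome build or the gene annotation. The values are raw read counts for every gene in each library, as deposited. Beside them stand FPKM values that the authors made, per the file headers. The authors' log2 fold change of mean FPKM, with a p-value and FDR from a test that is not named, served only for the sentences that credit the authors' table. FPKM served only to rank levels between genes. Since no build is named, no coordinates are printed. The RefSeq table of assembly USDA_OmykA_1.1, which held 133 of the 209 loci, gave names and neighbours.

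Of 39799 genes with a count, filterByExpr kept 30691. After TMM scaling, glmQLFit and glmQLFTest compared the phenotypes without covariates, two-sided, with Benjamini-Hochberg adjustment over all tested genes at 0.05. The SE was the absolute log2 fold change over the root of the F statistic. Depth, at 15059101 to 19031878 counts per library, sets the precision of sparse loci. The tools were edgeR 4.0.16, with DESeq2 1.42.0 and limma 3.58.1 as alternatives, in R 4.3.3. The fit was also run on simulated counts in which few genes changed, so that run cannot bear on the choice of scaling. Other alternatives were scalings, filters, a replicate block, each library left out and narrower rules for the members.

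The members and the 12 gene and marker lists were chosen with earlier results of these data known. Given in full were, in each class, the 3 tested loci with the highest mean FPKM, and the 2 highest and 2 lowest changes among loci past the threshold with non-overlapping phenotypes and a mean of at least 1 CPM. Other collagen loci were named by type. From the lists, loci past the threshold with at least 5 CPM and a log2 change of at least 1, and the most abundant locus, were eligible. Loci of the lists outside that rule (PHEX, Sp7, Panx3, sox9-b, ACAN, ucma, MATN1, MATN3, EPYC, the HAPLN1 loci ncbi_110525310 and ncbi_110522823, and the SERPINH1 and ALPL loci that did not pass) were named after their values were seen. The Lox loci other than ncbi_110525209, and Adamts2, loxl3b and LOXL1, were also outside that rule and named after their values were seen. List loci were matched by symbol, and 21 with another product name were dropped. Protein features of the loci were not analysed here.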

Additional observations from a re-analysis of the deposited data

How the results depend on the processing

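The scaling shifts all genes together. With library totals alone 10805 genes were higher and 4544 lower (median 0.1958), and collagen loci gave 41 higher and 28 lower (median 0.0903). Relative to the median of all genes the collagen median was -0.1049 with TMM and -0.1055 with library totals. By class this setting gave 5 higher and 4 lower fibrillar loci (median 0.0023), 10 higher cartilage loci, 6 lower basement membrane loci (median -0.0411) and 20 higher loci of other types (median 0.1173). It turned the sign, with no call in either fit, of COL4A1 (ncbi_110501999, 0.0905), COL6A2 (ncbi_110531056, 0.0350), COL6A3 (ncbi_110501275, 0.0576) and COL6A2 (ncbi_110508269, 0.0554). Fibrillar loci called higher were 1 with DESeq2 and 4 with the replicate block. With members limited to symbols that start with col they were 1 (median of the class -0.2783), cartilage loci lower 0 and basement membrane loci higher 3. Cartilage loci lower were also 0 with a mean of at least 1 CPM.

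With single libraries left out, all genes gave 5602 to 6015 higher and 6072 to 6582 lower, with medians from -0.0009 to 0.0045. Collagen loci gave 19 to 33 higher and 38 to 47 lower (medians -0.1153 to -0.053). Fibrillar loci gave 1 to 5 higher and 7 to 12 lower (-0.2604 to -0.1425), cartilage loci 5 to 9 higher, basement membrane loci 4 to 5 higher and 8 to 10 lower (-0.3074 to -0.161), and other types 9 to 15 higher and 19 to 25 lower (-0.0868 to -0.0121).

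With the replicate number as a block, 26 collagen loci were higher and 50 lower, and the COL10A1 locus ncbi_110522131 passed (0.39). Deviations of same-numbered libraries correlated at 0.08, 0.0137 and 0.0557, and those of differently numbered libraries at -0.0616 to 0.00739. These deviations are from means of 3 libraries and cannot decide whether the numbers pair libraries, which the labels do not say. Of 24 loci given in full, 11 had the same call in all 13 alternatives, and 288 of 312 values kept both direction and call. The cause of these shifts was not tested. Loci with few counts are the ones whose changes depth limits.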

Other observations

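A sparse group of 4 cartilage gene loci, chosen after their values were seen, had the same order of libraries within the wild type. COL2A1 (ncbi_110532038) had 4.115, 2.003 and 8.23 CPM across wild-type replicates 1 to 3 and 1.27, 5.63 and 3.94 CPM in yellow mutant replicates 1 to 3. COL2A1 (ncbi_110491116) had 1.61, 0.215 and 3.21 CPM against 0.0578, 1.76 and 1.59 CPM. The alpha-1(IX) locus whose reference symbol is col9a1a (ncbi_110485874) had 1.43, 0.286 and 2.24 CPM against 0.405, 2.30 and 0.819 CPM, and MATN1 (ncbi_110496845), a cartilage matrix gene, had 0.895, 0.143 and 1.09 CPM against 0.0578, 0.636 and 0.973 CPM. At all 4 loci wild-type replicate 3 was the highest and replicate 2 the lowest wild-type library, and yellow mutant replicate 1 was the lowest of its group. None of the 4 passed the test. The collagen loci among them belong to the 18 chosen for a low value in yellow mutant replicate 1, so its place there is by construction. Their changes were -0.40, -0.56 and -0.17 in the order given, and -0.01, -0.03 and 0.22 without that library. Other sparse loci of cartilage genes had another order, such as MATN3 (ncbi_110529390) with 0.537, 1.07 and 0.848 CPM and EPYC (ncbi_110499894) with 1.55, 2.003 and 1.76 CPM in the wild type, both highest in replicate 2.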
